A study of Arabidopsis thaliana with 2 samples.

Results

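The genes of the Arabidopsis thaliana plastid and mitochondrial genomes were examined in leaves of npr1-1 plants and of wild-type Col-0 plants after a cold exposure. The members were all listed genes whose identifier starts with ATCG (plastid) or ATMG (mitochondrion), whatever their level: 106 of the 18345 listed genes, of which 88 are plastid and 18 are mitochondrial. npr1-1 is a recessive point-mutation allele of NPR1, a co-activator of salicylic acid responses. Plants of both genotypes were 2 weeks old, had grown in long days under 90 µmol photons m-2 s-1, and spent 24 h at 4 °C under 40 µmol photons m-2 s-1 before RNA was extracted from leaves. Each genotype is 1 RNA-seq library, with 50976521 reads on listed genes in npr1-1 and 50864103 in Col-0, and all plants were cold treated.

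With 1 library per genotype there is no replicate check and no test between genotypes. Each ratio below is npr1-1 over Col-0 in CPM, which is reads per 1000000 reads on listed genes, and carries a 95% interval for counting error only. A log2 difference is npr1-1 minus Col-0 on log2(CPM + 0.1), given where either library reached 0.5 CPM, about 25 reads. Across the 17981 genes that pass this minimum, the median log2 difference was -0.04, 1.28% were at least 2-fold lower in npr1-1 and 0.473% at least 2-fold higher. NPR1 itself had 18.7 CPM in npr1-1 and 22.0 CPM in Col-0, but a point mutation leaves its transcript in place, so this level does not check the labels. The 5 leaf markers were all present, at summed levels of 24476 CPM in npr1-1 and 21322 CPM in Col-0. None of the 4 seed and 4 flower markers was listed. Of the 4 root markers 3 were listed, at summed levels of 14.2 CPM in npr1-1 and 9.63 CPM in Col-0, and the defining root hair gene EXPA7 was not. All 3 were higher in npr1-1. NRT2.1 had 177 reads in npr1-1 and 57 in Col-0, a ratio of 3.10 (2.29 to 4.25). PER3 (reference symbol RCI3) had a ratio of 1.54 (1.23 to 1.92), and the interval of the other marker includes 1. All plants were cold treated, so whether cold acts on the levels of these markers cannot be told. Whether this difference in root markers has a part in the results below was not tested. With 1 bulk leaf library each, fewer organelles or cells, less RNA per organelle and uneven capture between the libraries cannot be told apart.

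Plastids keep a small genome that encodes core subunits of the photosynthetic complexes and part of the plastid's own gene expression machinery; the remaining subunits come from the nucleus. Plastid photosynthesis genes are transcribed mainly by a bacterial-type RNA polymerase guided by nuclear-encoded sigma factors, and the genes of that polymerase mainly by a phage-type polymerase from the nucleus. Mitochondrial genes of plants are transcribed by phage-type polymerases, and most encode respiratory subunits and ribosomal proteins. Mature organelle mRNAs mostly lack the long poly(A) tails of nuclear mRNAs. The sources used here do not say whether the libraries were poly(A) selected. Plastid genes took 0.465% of the reads on listed genes in npr1-1 and 0.516% in Col-0. Mitochondrial models summed to 23.5 CPM in npr1-1 and 60.3 CPM in Col-0. The levels are therefore those of the transcripts that these libraries captured, which need not follow the amounts present in the leaf.

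Some mitochondrial DNA is a copy of plastid DNA, which matters for reading 2 of the mitochondrial models. In the RefSeq reference (TAIR10.1), 573 aligned bases of plastid rbcL, the large subunit of Rubisco, match the mitochondrial genome at 97.2% identity. A stretch of plastid ycf1 of 536 aligned bases matches it at 97.6%. In 100 bases of each alignment, the rbcL copies differ at 3 positions and the ycf1 copies at 5, shown in capitals, so that many short reads from one copy also fit the other. The plastid stretches lie at plastid:55540-55639 (plus strand) and plastid:128774-128873 (minus strand), and the mitochondrial ones at mitochondrion:165025-165124 (plus strand) and mitochondrion:42744-42843 (minus strand) of TAIR10.1.
rbcL, plastid: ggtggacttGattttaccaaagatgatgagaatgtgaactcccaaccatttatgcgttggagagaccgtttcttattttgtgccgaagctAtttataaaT
rbcL-like, mitochondrion: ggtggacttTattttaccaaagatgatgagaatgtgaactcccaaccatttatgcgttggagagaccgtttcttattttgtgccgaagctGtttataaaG
ycf1, plastid: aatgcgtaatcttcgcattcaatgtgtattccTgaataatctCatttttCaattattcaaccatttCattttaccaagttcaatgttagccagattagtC
ycf1-like, mitochondrion: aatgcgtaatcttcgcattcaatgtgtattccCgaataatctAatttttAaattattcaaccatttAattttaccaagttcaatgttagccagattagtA

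The plastid genes as a whole were close to even between genotypes, while psbA and rbcL, with the highest levels, were lower in npr1-1. psaA, psbC and psbD came next in level and were higher in npr1-1. All 88 plastid genes passed the minimum. Their summed level was 4654 CPM in npr1-1 and 5162 CPM in Col-0, a ratio of 0.902 (95% interval 0.897 to 0.907). The median log2 difference over single genes was 0.10, with 57 genes higher and 31 lower in npr1-1, or 63 higher and 25 lower with median-ratio or TMM scaling; over all genes 57.4% were lower. None was at least 2-fold apart, where 1.75% of all genes were. At 1.5-fold, 6 plastid genes were lower, or 5 photosystem II genes and rps14, and 1 was higher, rps18; over all genes 4.07% were lower and 2.2% higher by that much. matK, at a ratio of 1.47, lies just outside this limit. The counting interval of the ratio lay below 1 for 21 genes, above 1 for 37, and included 1 for 30. Such intervals are narrow for genes with many reads and leave out the spread between plants. Their share over all genes was not computed, so these and the later counts of intervals are a description only.

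The sum and the median point in different directions because of psbA, which encodes the D1 reaction centre protein of photosystem II. psbA (ATCG00020) had 739.7 CPM in npr1-1 and 1334 CPM in Col-0, a ratio of 0.555 (0.548 to 0.562), and was the lowest ratio of the 88. Per kilobase of its model it also had the highest level of all plastid genes in both libraries, 696 CPM per kb in npr1-1 and 1256 in Col-0. It took 15.9% of all plastid reads in npr1-1 and 25.8% in Col-0. Without psbA the other 87 genes summed to 3914 CPM in npr1-1 and 3828 CPM in Col-0, a ratio of 1.02 (1.02 to 1.03). rbcL (ATCG00490) came next per length, at 364 CPM per kb in npr1-1 and 475 in Col-0. Its level was 524 CPM in npr1-1 and 684 CPM in Col-0, a ratio of 0.766 (0.754 to 0.779). With both genes left out the ratio of the sums was 1.08 (1.07 to 1.09).

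Upstream of psbA, the reference holds a pair of elements like those of bacterial promoters, shown in capitals in the 60 bases at plastid:1515-1574 (minus strand, RefSeq, TAIR10). The motif searched was TTGACA followed after 15 to 21 bases by TANNNT, on the strand of the gene, in the 250 bases before each model's start. It occurs in 4 of the 88 windows (4.55%): before psbA, where it starts 115 bases ahead of the coding sequence, before atpF, and before both ycf1 models. Of these 4 models, psbA had the ratio 0.555 and atpF 0.836, while the ycf1 models had 1.22 and 1.34. The ycf1 models share 1030 identical bases and have the motif at the same position with the same spacer of 16 bases, so they are not separate cases. Whether the motif has a part in these ratios was not tested.
psbA, upstream: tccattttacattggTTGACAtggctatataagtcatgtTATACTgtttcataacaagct

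**Figure D1:**
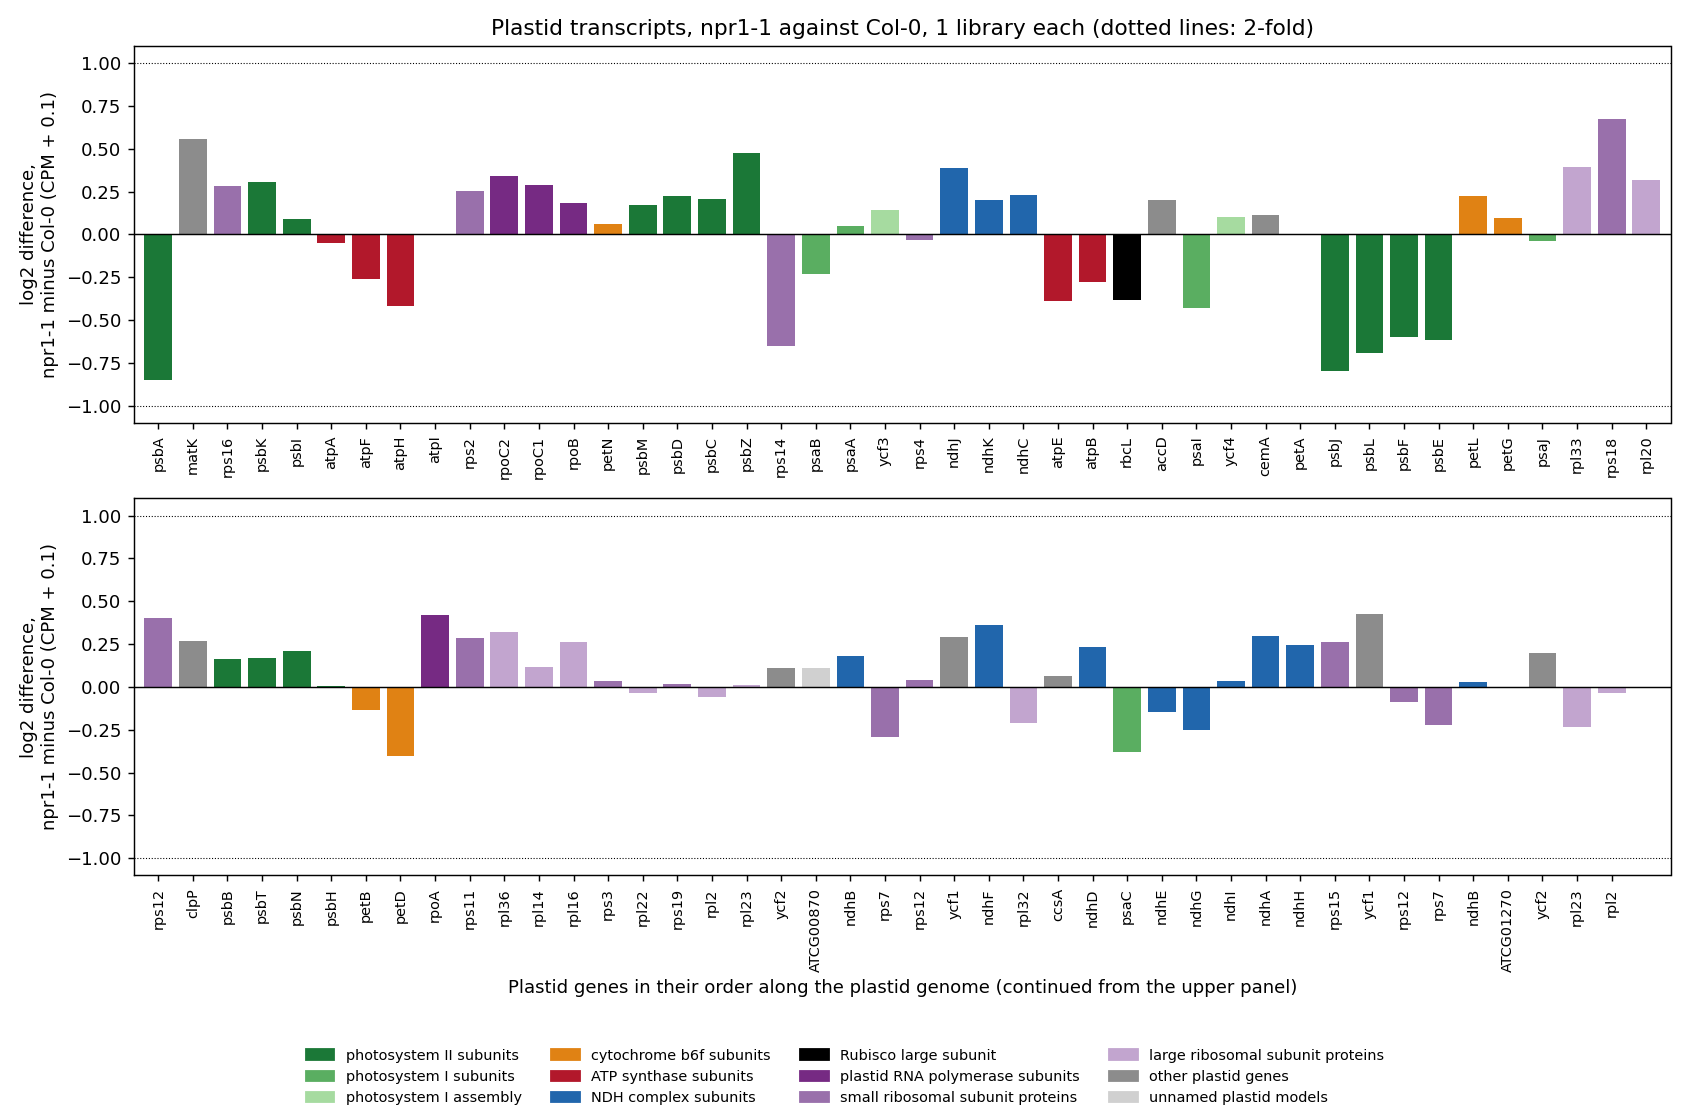
Log2 difference, npr1-1 minus Col-0, on log2(CPM + 0.1), of 87 of the 88 plastid genes in their order along the plastid genome, coloured by role, with 1 library per genotype; the dotted lines mark 2-fold. psbA, rps14 and the neighbours psbJ, psbL, psbF and psbE reach furthest down, rps18 and matK furthest up, and no bar reaches a dotted line.

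Apart from psbA, the photosystem II genes at least 1.5-fold lower in npr1-1 were 4 neighbours on one strand. psbE and psbF encode the subunits of cytochrome b559, and psbL and psbJ are small subunits of the same photosystem. Their coding sequences lie next to each other on the minus strand and are shown in the order of transcription, with start and stop codons in capitals. They span plastid:64071-64322 for psbE, plastid:63942-64061 for psbF, plastid:63804-63920 for psbL and plastid:63538-63660 for psbJ (RefSeq, TAIR10).
psbE: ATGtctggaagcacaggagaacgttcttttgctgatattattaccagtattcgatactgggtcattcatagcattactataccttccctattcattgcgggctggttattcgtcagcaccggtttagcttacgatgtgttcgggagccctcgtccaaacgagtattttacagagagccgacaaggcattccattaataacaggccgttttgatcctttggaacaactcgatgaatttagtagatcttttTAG
psbF: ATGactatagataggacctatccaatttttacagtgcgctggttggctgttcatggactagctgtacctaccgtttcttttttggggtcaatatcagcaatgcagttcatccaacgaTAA
psbL: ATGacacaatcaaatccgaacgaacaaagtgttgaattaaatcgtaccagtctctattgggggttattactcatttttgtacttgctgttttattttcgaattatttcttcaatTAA
psbJ: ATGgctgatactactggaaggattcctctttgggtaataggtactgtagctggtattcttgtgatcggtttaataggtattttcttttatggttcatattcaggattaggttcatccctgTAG

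psbE had 19.5 CPM in npr1-1 and 29.9 CPM in Col-0, a ratio of 0.650 (0.600 to 0.705). psbF had 11.3 CPM in npr1-1 and 17.1 CPM in Col-0, a ratio of 0.658 (0.591 to 0.732). psbL stood at 9.04 CPM in npr1-1 against 14.7 CPM in Col-0, a ratio of 0.617 (0.548 to 0.693). All 3 intervals overlap. psbJ had 9.20 CPM in npr1-1 and 16.0 CPM in Col-0, a ratio of 0.573 (0.511 to 0.643). Together the 4 genes summed to 49.0 CPM in npr1-1 and 77.7 CPM in Col-0, a ratio of 0.630 (0.599 to 0.662).

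All 15 photosystem II genes together summed to 1956 CPM in npr1-1 and 2424 CPM in Col-0, a ratio of 0.807 (0.801 to 0.814). The 10 genes other than psbA and the 4 neighbours were level (psbH, 1.00) or higher in npr1-1, with 7 intervals above 1 and 3 that include 1. This split was made after the values were seen, so the common direction of the 10 is a description. These 10 genes summed to 1168 CPM in npr1-1 and 1012 CPM in Col-0, a ratio of 1.15 (1.14 to 1.17). psbC and psbD encode the CP43 antenna and the D2 reaction centre protein, and their models overlap, so that reads on the shared bases could belong to either. psbC had 481 CPM in npr1-1 and 418 CPM in Col-0, a ratio of 1.15 (1.13 to 1.17). psbD had 339 CPM in npr1-1 and 289.9 CPM in Col-0, a ratio of 1.17 (1.14 to 1.19). D1 and D2 form the reaction centre together, and the level of the D1 transcript was thus lower in npr1-1 and that of the D2 transcript higher. psbB, the CP47 antenna, had 227 CPM in npr1-1 and 203 CPM in Col-0, a ratio of 1.12 (1.09 to 1.15). The small subunit gene psbZ had the highest ratio of the photosystem II genes, 1.39 (1.30 to 1.49), at 42.3 CPM in npr1-1 and 30.3 CPM in Col-0. psbN lies on the opposite strand between psbT and psbH, and without a stated use of strand its reads cannot be told from antisense reads of that transcript.

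Photosystem I genes were nearly even in sum, at 661 CPM in npr1-1 and 673 CPM in Col-0, a ratio of 0.982 (0.967 to 0.997) that became 1.01 with median-ratio or TMM scaling. They differed among themselves. psaJ, a small subunit, had the highest level per length of the group, 228 CPM per kb in npr1-1 and 234 in Col-0. psaA and psaB encode the reaction centre pair. psaA had 479 CPM in npr1-1 and 463 CPM in Col-0, a ratio of 1.04 (1.02 to 1.05). psaB had 141 CPM in npr1-1 and 166 CPM in Col-0, a ratio of 0.851 (0.825 to 0.879). The iron-sulphur subunit gene psaC had a ratio of 0.767 (0.670 to 0.878) and psaI one of 0.734 (0.580 to 0.928). ycf3 and ycf4, which act in photosystem I assembly, had ratios of 1.11 and 1.07 with intervals that include 1.

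The 6 ATP synthase genes were level or lower in npr1-1, 5 of them also with median-ratio or TMM scaling, with a sum of 238 CPM in npr1-1 and 276 CPM in Col-0, a ratio of 0.863 (0.842 to 0.884). atpH, the subunit of the membrane ring, had the highest level per length, 101 CPM per kb in npr1-1 and 135 in Col-0, and the lowest ratio, 0.749 (0.696 to 0.806). atpE followed at 0.762 and atpB at 0.825, 2 overlapping models of one strand. atpF had 0.836, and the intervals of atpA (0.966) and atpI (0.998) include 1. Cytochrome b6f genes summed to 104 CPM in npr1-1 and 115 CPM in Col-0, a ratio of 0.910 (0.877 to 0.945). Of these 6 genes, petD, which encodes subunit IV, had 0.754 (0.696 to 0.817) and petB, the cytochrome b6 gene, 0.912 (0.861 to 0.965). The intervals of the other 4 include 1, among them petN, with the highest level per length in npr1-1, 75.9 CPM per kb against 72.5 in Col-0.

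Genes of the NDH complex, which feeds electrons back into the plastoquinone pool, were mostly higher in npr1-1. The 12 models summed to 243 CPM in npr1-1 and 208 CPM in Col-0, a ratio of 1.17 (1.14 to 1.20), and 10 of them were higher. They include a pair of identical models for ndhB, and several are neighbours on one strand, so the 12 are not separate cases. ndhJ had the highest ratio, 1.31 (1.19 to 1.44), at 19.4 CPM in npr1-1 and 14.8 CPM in Col-0, and ndhF had 1.28 (1.20 to 1.37). Per length ndhC stood highest, at 44.5 CPM per kb in npr1-1 and 37.9 in Col-0. The lower pair were ndhG, at 0.837 (0.721 to 0.971), and ndhE, at 0.901 with an interval that includes 1.

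All 4 genes of the bacterial-type RNA polymerase were higher in npr1-1, each with an interval above 1. Their sum was 203 CPM in npr1-1 and 168 CPM in Col-0, a ratio of 1.21 (1.18 to 1.25). rpoC1 had the highest level per length, 28.5 CPM per kb in npr1-1 and 23.3 in Col-0. Single ratios were 1.34 for rpoA, 1.27 for rpoC2, 1.22 for rpoC1 and 1.13 for rpoB. The last 3 are neighbours on one strand, so the 4 are not separate cases. Over all genes 57.4% were lower in npr1-1.

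The 9 models with other functions were also all higher in npr1-1, at 443 CPM in npr1-1 and 349 CPM in Col-0, a ratio of 1.27 (1.25 to 1.30), and 7 intervals lay above 1. They include a pair of models each for ycf1 and ycf2, whose reads cannot be told apart where the sequence is the same. The 9 are therefore not 9 separate genes. matK, a maturase that acts in intron splicing, held the highest level of the 9 per length, 114 CPM per kb in npr1-1 and 77.5 in Col-0. Its level was 180.1 CPM in npr1-1 and 123 CPM in Col-0, a ratio of 1.47 (1.42 to 1.52). clpP, a protease subunit, had 1.21, and accD, a subunit of the acetyl-CoA carboxylase of fatty acid synthesis, 1.15. The long ycf1 model, for a protein of the import machinery, had 1.34 (1.26 to 1.43).

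The 26 ribosomal protein models, some of them copies of one gene, had no common direction. Their sum was 247 CPM in npr1-1 and 234 CPM in Col-0, a ratio of 1.05 (1.03 to 1.08), with 16 models higher and 10 lower. rps18, a small subunit protein, had the highest ratio of all plastid genes: 17.0 CPM in npr1-1 and 10.6 CPM in Col-0, a ratio of 1.60 (1.43 to 1.78). rps14 went the other way, at 11.3 CPM in npr1-1 and 17.9 CPM in Col-0, a ratio of 0.635 (0.571 to 0.706). rpl33 had the highest level per length of the 26, 140.3 CPM per kb in npr1-1 and 107 in Col-0, and a ratio of 1.31 (1.21 to 1.42). The unnamed models ATCG00870 and ATCG01270 had ratios of 1.08 and 0.998, both with intervals that include 1.

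**Figure D2:**
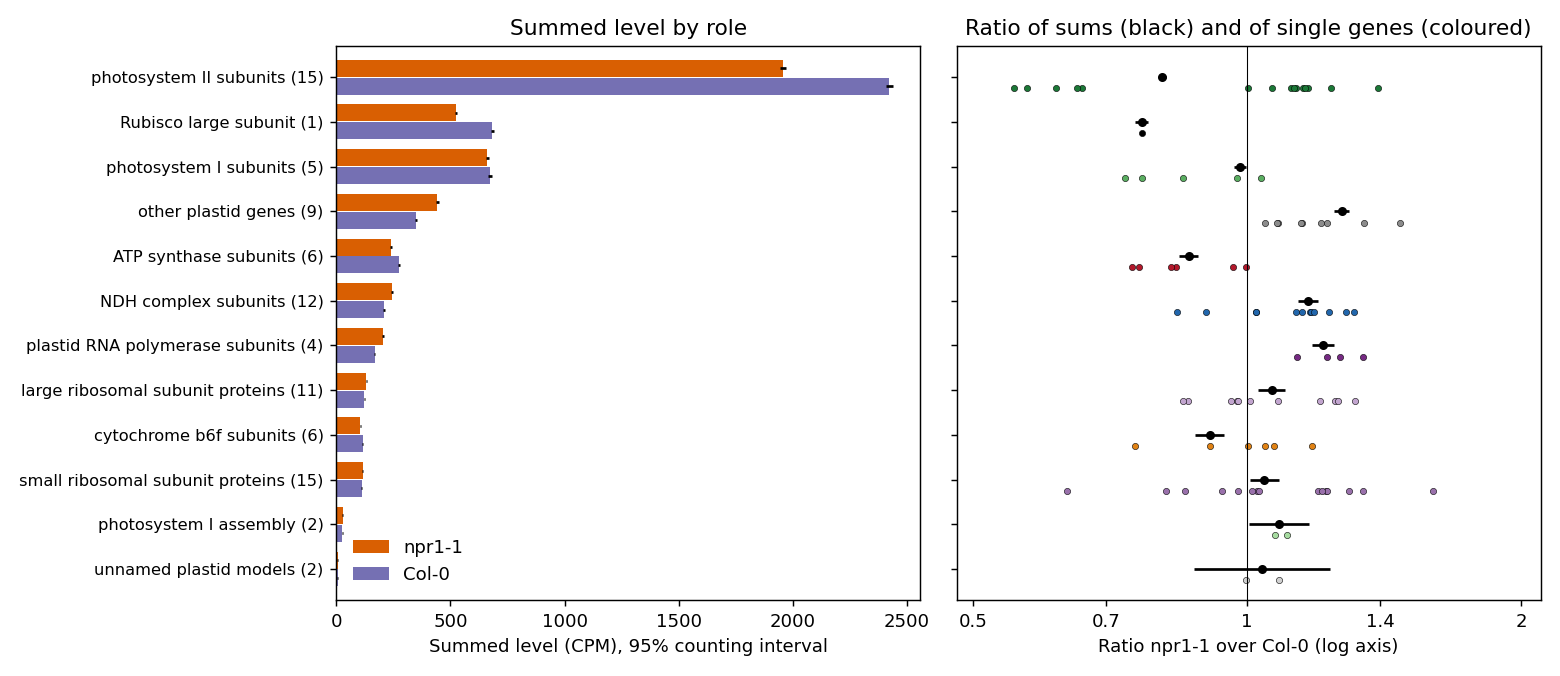
Left, summed level in CPM of the plastid genes of each role, npr1-1 above Col-0, with the number of genes in brackets and 95% counting intervals. Right, the ratio npr1-1 over Col-0 of those sums (black, 95% counting interval) and of the single genes (coloured) on a log axis; the photosystem II genes fall into a low set of 5 and a set of 10 at or above 1, while all points of the RNA polymerase and other genes lie above 1.

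Neighbouring genes, which in plastids are often transcribed together, had similar log2 differences. Genes on one strand with at most 300 bases between them formed 22 runs that hold 63 of the 88 genes. The median absolute gap in log2 difference between adjacent genes was 0.13 for the 41 pairs inside a run and 0.23 for the 46 adjacent pairs of different runs. Over all 3747 pairs from different runs it was 0.27. Neighbours share transcripts and, in places, reads, so these gaps are a description. Along some runs the ratio was lower towards the end of the transcript: psaA had 1.04, psaB 0.851 and rps14 0.635. Likewise psbH had 1.00, petB 0.912 and petD 0.754. In the run of rpl33 and rps18 the ratios went the other way, with 1.31 for rpl33 at its start and 1.60 for rps18. These runs were chosen after their values were seen. By length, the median log2 difference was 0.04 for the 31 models under 300 bases and 0.11 for the 57 others.

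Part of the plastid genome is present in a pair of inverted repeats, and the reads of a repeated gene cannot be assigned to one copy. The copies of 5 such pairs were set side by side: rpl2 had 22.0 and 21.9 CPM in npr1-1, against 22.9 and 22.4 CPM in Col-0. ycf2 had 63.0 and 63.4 CPM in npr1-1, against 58.4 and 55.3 CPM in Col-0. The ratios of the copies were 0.815 and 0.856 for rps7 and 1.13 and 1.02 for ndhB. They were furthest apart for rpl23, at 1.01 (0.859 to 1.18) and 0.850 (0.728 to 0.991), with 6.24 and 6.08 CPM in npr1-1, against 6.19 and 7.16 CPM in Col-0. Near-identical copies, at 95% identity over at least 50% of a model, were found for 17 plastid models, 15 of them within the plastid and 3 in the nucleus. psbA, the psbE to psbJ genes and matK are not among them. Both copies of a repeated gene enter the sums and counts of genes given above. With repeated copies counted once, the ratio of the plastid sums was 0.898 and the median log2 difference 0.11.

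The mitochondrial transcripts differed far more. Of the 18 models 14 passed the minimum, and 11 of these were at least 2-fold lower in npr1-1, where 1.28% of all genes were; none was at least 2-fold higher. The median log2 difference of the 14 was -1.90. Of the 11, only ATMG00030, ATMG01190 and ATMG01360 reached 0.5 CPM in npr1-1. The others passed through Col-0 alone, the library where they are higher, which tilts the count and the median towards lower values. With no minimum the count was 14 and the median -1.85, and the sums below use no minimum. All 18 models summed to 23.5 CPM (1198 reads) in npr1-1 and 60.3 CPM (3066 reads) in Col-0, a ratio of 0.390 (0.364 to 0.417). The 2 models that resemble plastid genes, ATMG00280 and ATMG00370, had ratios of 0.770 and 1.18 and carry 749 of the 1198 reads in npr1-1 and 928 of the 3066 in Col-0. Without them the sum was 8.81 CPM in npr1-1 and 42.0 CPM in Col-0, a ratio of 0.210 (0.189 to 0.232). The 16 remaining models were all lower in npr1-1. These are low levels: apart from ATMG00030 and the plastid-like pair, no mitochondrial model exceeded 0.647 CPM in npr1-1 or 3.64 CPM in Col-0.

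Subunits of respiratory complex I, the NADH dehydrogenase, were represented by 5 models. The nad5 exons of ATMG00060 had 12 reads in npr1-1 and 58 in Col-0, a ratio of 0.206 (0.101 to 0.389). nad9 (ATMG00070) had 8 reads in npr1-1 and 41 in Col-0, a ratio of 0.195 (0.0788 to 0.421). nad4L (ATMG00650) had 1 read in npr1-1 and 29 in Col-0, a ratio of 0.0344 (0.000842 to 0.208). The nad1 exon model ATMG01120 was under the minimum, with 1 read in npr1-1 and 15 in Col-0. ATMG00665, a 22-base exon of nad5, had 0 reads in npr1-1 and 2 in Col-0, under a floor of 3 reads, and gets no fold. All 5 summed to 22 reads in npr1-1 and 145 in Col-0, a ratio of 0.151 (0.0920 to 0.238).

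Complex IV, the cytochrome c oxidase, was similar. cox1 (ATMG01360) had 0.647 CPM (33 reads) in npr1-1 and 3.64 CPM (185 reads) in Col-0, a ratio of 0.178 (0.119 to 0.259). cox2 (ATMG00160) had 0.177 CPM (9 reads) in npr1-1 and 1.55 CPM (79 reads) in Col-0, a ratio of 0.114 (0.0501 to 0.227). The intervals of both overlap those of the complex I models.

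Among ATP synthase genes, the alpha subunit gene atp1 (ATMG01190) had 27 reads in npr1-1 and 179 in Col-0, a ratio of 0.151 (0.0965 to 0.226). atp4 (ATMG00640) had 15 reads in npr1-1 and 65 in Col-0, a ratio of 0.230 (0.122 to 0.408). atp8 (ATMG00480) had 6 reads in npr1-1 and 36 in Col-0, a ratio of 0.166 (0.0573 to 0.398). ATMG01080, whose nuclear match is annotated as a subunit C family protein, had the largest log2 difference of the 14, -2.87. It had 9 reads in npr1-1 and 98 in Col-0, a ratio of 0.0916 (0.0407 to 0.181). The ribosomal protein gene rpl16 (ATMG00080) had 4 reads in npr1-1 and 29 in Col-0, a ratio of 0.138 (0.0352 to 0.392). The summed ratios of complex I (0.151), complex IV (0.159) and the ATP synthase (0.150) were thus close to each other. Per length, the 10 models of these complexes and the ribosome that pass the minimum lay between 0.0647 CPM per kb (nad4L) and 0.508 (atp4) in npr1-1. In Col-0 they lay between 1.06 CPM per kb (rpl16) and 3.82 (ATMG01080).

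Models with no annotation in the sources used were also lower. ATMG00030, a 324-base model, had the highest level of the mitochondrial models per length in Col-0: 18.0 CPM per kb in npr1-1 and 75.7 in Col-0. It had 5.83 CPM (297 reads) in npr1-1 and 24.5 CPM (1248 reads) in Col-0, a ratio of 0.237 (0.209 to 0.270). ATMG00660 differed least, with 21 reads in npr1-1 and 39 in Col-0, a ratio of 0.537 (0.300 to 0.936), and is the one model of the 12 that passed without a 2-fold difference. ATMG01130 and ATMG01370 were under the minimum, with 2 and 4 reads in npr1-1, against 17 and 18 reads in Col-0. Leaving out ATMG00030 as well as the plastid-like pair gave a ratio of 0.170 (0.143 to 0.203).

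**Figure D3:**
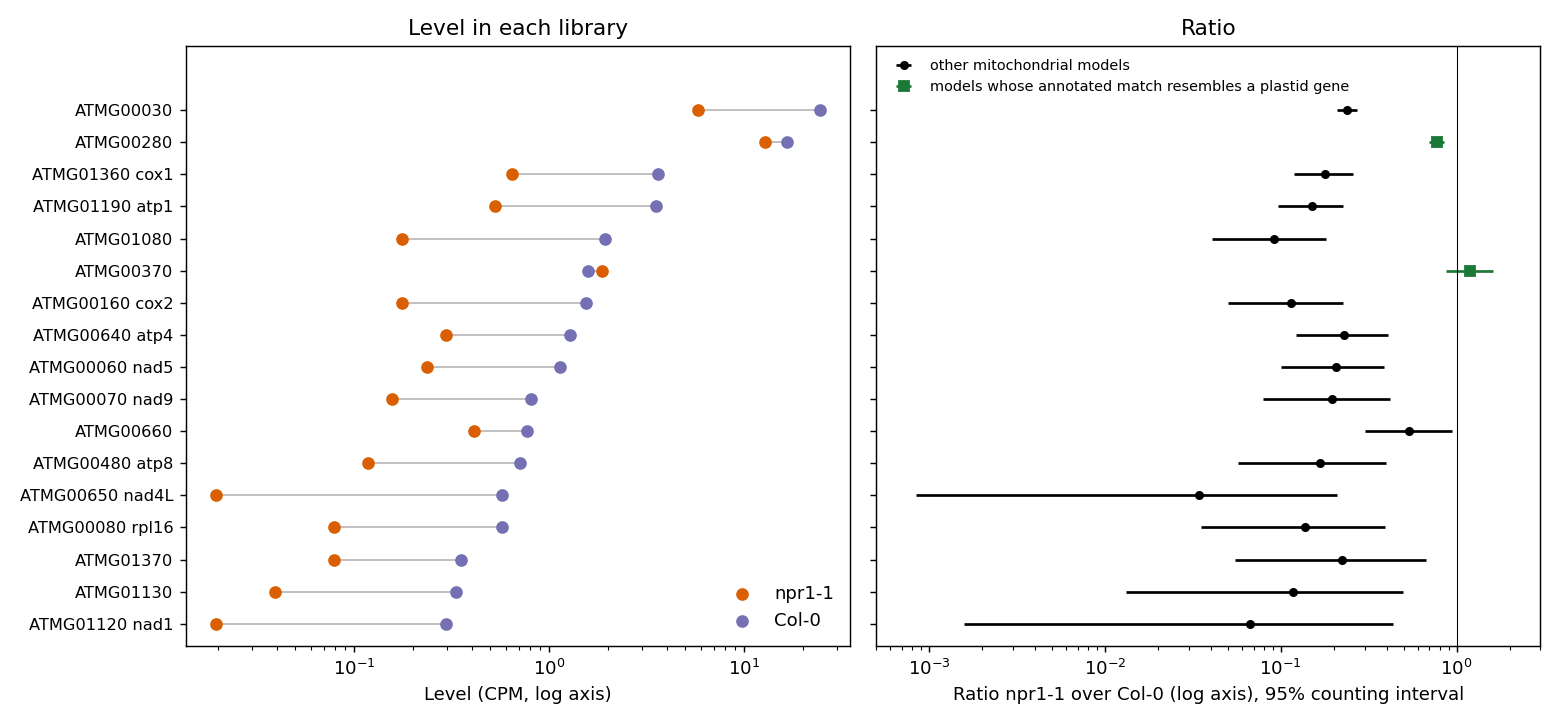
Left, level in CPM (log axis) of 17 mitochondrial models in npr1-1 and Col-0; ATMG00665, with 0 reads in npr1-1, is not drawn. Right, the ratio npr1-1 over Col-0 with its 95% counting interval; the plastid-like models ATMG00280 and ATMG00370 (squares) lie near 1, and the other models lie lower, ATMG00660 closest to 1.

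The plastid-like models had ratios close to those of plastid genes. ATMG00280 is tied to rbcL through its nuclear match AT2G07732, which the reference annotates as a Rubisco large chain domain. It had 654 reads in npr1-1 and 848 in Col-0, a ratio of 0.770 (0.694 to 0.853). Plastid rbcL had 0.766 and AT2G07732 0.720 (0.663 to 0.782), and all 3 intervals overlap. For ATMG00370, an open reading frame of the same length, 600 bases, was found in the reference mitochondrion. Of its bases, 533 match plastid ycf1 at 97.6%. The sequence of the model in the deposited build was not read. ATMG00370 had 95 reads in npr1-1 and 80 in Col-0, a ratio of 1.18 (0.871 to 1.62). Plastid ycf1 (ATCG01130) had 1.34 and the nuclear match AT2G07739, annotated as a Ycf1 protein, 1.36 (1.01 to 1.83). How many reads of these models came from plastid RNA cannot be told from the deposited values.

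Other mitochondrial models have nuclear partners too, on chromosome 2, which in Arabidopsis carries a large insertion of mitochondrial DNA. In the reference, the atp8 and atp1 models have copies there at 100% identity over 477 and 1524 bases. Reads from such bases fit both places, so the ratios of model and partner are not independent. These partners had low ratios like the models themselves. AT2G07707 (atp8-like) had 8 reads in npr1-1 and 46 in Col-0, a ratio of 0.174 (0.0707 to 0.371). AT2G07671 (like ATMG01080) had 12 reads in npr1-1 and 107 in Col-0, a ratio of 0.112 (0.0561 to 0.204). AT2G07698 (atp1-like) had 47 reads in npr1-1 and 196 in Col-0, a ratio of 0.239 (0.170 to 0.330). The division of reads between each model and its partner is uncertain.

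**Figure D4:**
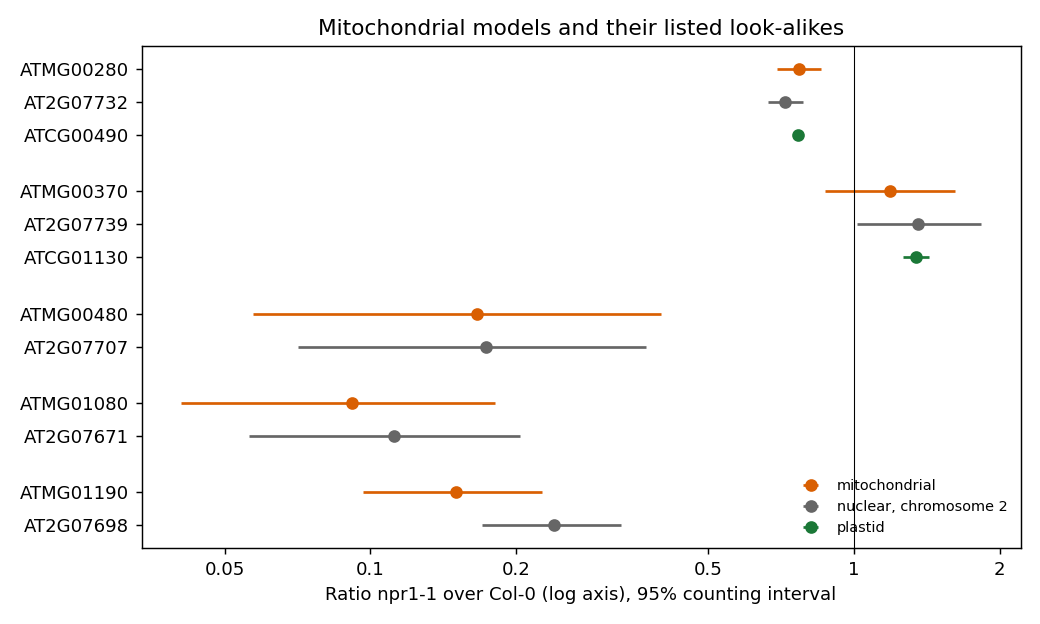
Ratio npr1-1 over Col-0 (log axis) with 95% counting intervals for 5 mitochondrial models, each grouped with the nuclear gene on chromosome 2 that the annotation pairs with it and, for ATMG00280 and ATMG00370, with plastid rbcL (ATCG00490) and ycf1 (ATCG01130). In each group the intervals overlap, but members of a group can share reads, so their ratios are not independent. The groups of ATMG00280 and ATMG00370 lie at 0.720 to 1.36, the other groups between 0.0916 and 0.239.

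Nuclear genes that serve organelle transcription and the same complexes were near even. Of 6 sigma factor genes, 4 were higher and 2 lower, with a median log2 difference of 0.07 and none 1.5-fold apart. SIG5, the stress-responsive sigma factor that acts at the psbD light-responsive promoter, had 297 CPM in npr1-1 and 336 CPM in Col-0, a ratio of 0.884. SIG2 had 0.858, SIG1 1.05, SIG3 1.05, SIG4 1.17 and SIG6 1.07. The 3 phage-type polymerase genes had a median of 0.02. RPOT1, the mitochondrial enzyme, had 61.1 CPM in npr1-1 and 60.2 CPM in Col-0, a ratio of 1.02, RPOT2, which serves both organelles, 0.960, and RPOT3, the plastid enzyme, 1.01.

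The 13 genes of polymerase-associated proteins had a median log2 difference of -0.02, which became 0.02 with median-ratio or TMM scaling, with FSD3 (0.28) and PTAC6 (0.13) highest and PTAC7 (-0.15) and FLN2 (-0.13) lowest. Among 7 genes of organelle RNA processing and decay, the median was 0.11. The mitochondrial polynucleotide phosphorylase, a 3' exonuclease of mitochondrial RNA, stood highest at 0.36, or 56.6 CPM in npr1-1 and 44.1 CPM in Col-0, and its plastid counterpart next at 0.13. The RNA-binding proteins CSP41A (-0.22) and CSP41B (-0.18) were lowest. For 15 nuclear subunits of the thylakoid complexes the median was -0.04, which became 0.0051 with median-ratio and 0.0048 with TMM scaling, with PSBO2 (0.15) and NDHM (0.13) highest and NDHL (-0.25) and NDHN (-0.19) lowest. The 10 nuclear subunits of mitochondrial respiration, partners of the nad, cox and atp products, had a median of 0.08 and a range from -0.05 (COX6B) through -0.04 (EMB1467) to 0.16 (COX5B-1) and 0.27 (CYTC-1). No gene of these 6 lists was 1.5-fold apart, where 6.27% of all genes were.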

How the data were processed

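RNA was sequenced from leaves of cold-treated npr1-1 and Col-0 plants, 1 library each. The deposited values are CPM for 18345 genes, scaled by the authors so that each library sums to 1000000. The submitters' processing notes name TopHat2, DESeq2 and TAIR10, with no version or role. How reads were counted, whether by strand, which genes were filtered and whether plants were pooled is not given in the sources used here. Whole reads were recovered from the CPM steps (100% of values within 0.01 of a whole number). The log2 difference used a pseudocount of 0.1 CPM and a minimum of 0.5 CPM. Intervals of ratios are exact conditional binomial (Clopper-Pearson) and cover counting error only; PCR copies are not told apart.

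Plastid models were named from the reference annotation, and 81 of the 88 start with ATG and end with a stop codon when read from the reference plastid. The reference mitochondrion is another build, so its sequence was read only at matches found with BLAST+ 2.17.0. Of the mitochondrial models, 11 were named by a coding length or exon span that fits no other gene there; the spacing of nad9 to rpl16 (840 bases) and of atp4 to nad4L (266 bases) is the same in both. A further 3 are described through the nuclear gene annotated as their match, and 4 have no annotation. Python 3.11.15 with scipy 1.17.1, numpy 2.4.6 and pandas 2.3.3 was used, and the steps were tested on simulated data.

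Values are printed for the genes with the highest level per length of each role, for those at least 1.5-fold apart, for every mitochondrial model, and for all sigma factor and RPOT genes and the 2 highest and 2 lowest of each other nuclear list; further genes were named after their values were seen. The values of 1 plastid gene are not reported here; it is counted in all sums and counts. The members, gene lists and limits were chosen with earlier results of these data known. Alternatives were other scalings, pseudocounts, minimums and folds, and leaving out members.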

Additional observations from a re-analysis of the deposited data

How the results depend on the processing

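The plastid sum depends on its highest members: the ratio of 0.902 became 1.02 without psbA and 1.08 without psbA and rbcL, an alternative chosen after seeing the data. It was 0.929 with median-ratio or TMM scaling, 0.893 without members with a near-identical copy and 0.857 without overlapping models. No plastid gene was 2-fold apart under any scaling, pseudocount or minimum tried, and 7 were at 1.5-fold. The plastid median stayed between 0.04 (mean in place of median) and 0.14. The mitochondrial ratio of 0.390 was 0.495 without ATMG00030, the highest member, and, under choices made after seeing the data, 0.210 without ATMG00280 and ATMG00370 and 0.170 without all 3. The 11 mitochondrial genes 2-fold apart became 5 with a pseudocount of 1, which shrinks low levels, and 1 with a minimum of 5 CPM, which leaves few models. The median of -1.90 became -0.72 and -1.22 under these settings and stayed negative under every setting tried. For the nuclear thylakoid subunits the median of -0.04 became 0.0051 (median-ratio) and 0.0048 (TMM), scalings that shift all log2 differences by 0.04. Of 163 values of roles and lists under alternatives, 6 changed sign.

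No paired analysis was possible because each genotype is 1 library and the labels give no replicate numbers; for the same reason leaving out a replicate could not be run. Most mitochondrial models have under 50 reads in npr1-1, which limits them to wide intervals.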
